A study of Mus musculus with 6 samples.

Results

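CTCF and the subunits and regulators of cohesin were followed in primary brite adipocytes after knockdown (KD) of the long noncoding RNA *Ctcflos*. The group was picked by symbol and not by a rule on values, but with earlier results of these data known. It holds 9 genes: *Ctcf*, the ring subunits *Smc1a*, *Smc3*, *Rad21*, *Stag1* and *Stag2*, the loader *Nipbl*, and the regulators *Pds5a* and *Pds5b*. They are 9 of 52089 symbols in the deposited table, and all 9 reached a mean of 1 RPKM (a read number per kilobase of transcript relative to library depth), the limit for testing that 11701 genes passed. At 24 h, *Ctcf* and *Rad21* were higher and *Smc1a* was lower in *Ctcflos* KD, each by about 0.5 on the log2 scale, and the remaining 6 genes did not pass the test. The calls depended on single libraries: with each library left out in turn, between 0 and 5 of the 9 genes were called. The count over all genes tested moved as well, between 369 and 4810.

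CTCF is a zinc finger protein that binds DNA at sites with a CCCTC core, and many of its sites mark the borders of chromatin loops. Cohesin is a ring that SMC1A, SMC3 and RAD21 close around DNA and to which STAG1 or STAG2 attaches. NIPBL with MAU2 loads the ring, which then extrudes chromatin until it meets CTCF, while PDS5A, PDS5B and WAPL govern its pausing and release.

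Cells of the stromal vascular fraction of inguinal white fat of 129SvEv mice were induced for 2 days, differentiated for 1 day with rosiglitazone and reverse transfected with 50 nM of an LNA Gapmer, a locked nucleic acid antisense oligonucleotide (ASO). The Gapmer was either ASO1 against *Ctcflos* transcript 1 (*Ctcflos* KD, 3 libraries) or a nontargeting sequence (NC control, 3 libraries), and RNA was harvested after 24 h. A single oligonucleotide was used for the KD, so that loss of *Ctcflos* and any other action of ASO1 cannot be told apart in these libraries. The labels do not say whether libraries come from separate cultures, and p-values measure only the spread between these samples, which may be technical.

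The depth, recovered from the steps between low values, was between 60.8 and 79.2 mio reads per library. *Ctcflos*, listed as 1300015D01Rik, had 0.0705 to 0.210 RPKM in *Ctcflos* KD and 0.748 to 0.840 RPKM in controls, which left 16.1%. The 8 adipocyte markers all passed the filter and summed to 4553 to 5996 RPKM in *Ctcflos* KD and 6165 to 6829 RPKM in controls, and the 6 brite markers to 29.0 to 51.2 and 52.7 to 116 RPKM. Of the 8 adipocyte markers, 7 had a negative log2 fold change, *Cidec* was at 108% of control, and 0 were called by limma. Among the 5 tested brite markers, *Ucp1* and *Ppargc1a* were called lower and 3 were not called. *Dio2*, the brite marker below the filter, was at 208% of control, with every *Ctcflos* KD library above every control. The sum of the 6 smooth muscle and pericyte markers was highest in *Ctcflos* KD replicate 3 (114 RPKM) and control replicate 2 (201 RPKM). *Acta2* (48.2 and 83.6 RPKM) and *Tagln* (64.2 and 114 RPKM) made up most of it in these libraries. *Myh11* and *Cnn1* were highest there too, whereas *Cspg4* was highest in replicate 1 of both groups (1.14 and 1.15 RPKM). *Rgs5* was highest in *Ctcflos* KD replicate 2 (0.199 RPKM) and control replicate 1 (0.138 RPKM). The sum of the 7 immune markers was also highest in *Ctcflos* KD replicate 3 and control replicate 2 (16.3 and 27.7 RPKM), with *Cd3e* listed at 0 in all 6 libraries. *Lyz2* made up 12.8 and 24.5 RPKM of these immune sums, whereas *Cd68* went the other way, with 4.12, 3.44 and 2.16 RPKM in *Ctcflos* KD and 0.657, 1.92 and 0.664 RPKM in controls (limma log2 fold change 1.05, adjusted p = 0.0230), and *Csf1r* was at 1.10 to 1.48 and 0.269 to 0.833 RPKM. The single markers named in this paragraph were chosen after their values were seen. The 7 progenitor and stromal markers summed to 185 to 405 RPKM in *Ctcflos* KD and 282 to 456 RPKM in controls, of which *Ly6a* made up 152 to 374 and 243 to 413 RPKM. Of the 5 tested, *Pdgfra* was called lower, without overlap (limma log2 fold change -0.69, adjusted p = 0.0104), and 4 were not called. *Pdgfrb* and *Cd34*, both uncalled, had a log2 fold change of 0.17 each. The 5 endothelial markers summed to at most 1.38 RPKM and the 8 epithelial and mesothelial markers to at most 0.538 RPKM. The part of these marker levels in the results was not tested. In bulk RNA, fewer cells of a type and less RNA per cell cannot be told apart.

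Promoter sequences are shown for 3 genes, *Ctcf* and *Smc3*, which were higher in every *Ctcflos* KD library than in every control, and *Smc1a*, which was lower, because the members differ in direction although their products act together. The stretches hold the 250 bases before the RefSeq start on GRCm38.p6, all on the plus strand: chr8:105636288-105636537 for *Ctcf*, chr19:53600146-53600395 for *Smc3* and chrX:152016178-152016427 for *Smc1a*. Capitals mark the pentamer CCCTC, the core that gave CTCF its name, or its reverse complement.
Ctcf: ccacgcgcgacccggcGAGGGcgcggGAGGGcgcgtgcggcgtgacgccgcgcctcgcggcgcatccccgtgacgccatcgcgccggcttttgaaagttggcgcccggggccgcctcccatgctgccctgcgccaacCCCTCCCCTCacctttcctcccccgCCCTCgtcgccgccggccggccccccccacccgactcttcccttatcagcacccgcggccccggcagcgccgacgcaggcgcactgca
Smc3: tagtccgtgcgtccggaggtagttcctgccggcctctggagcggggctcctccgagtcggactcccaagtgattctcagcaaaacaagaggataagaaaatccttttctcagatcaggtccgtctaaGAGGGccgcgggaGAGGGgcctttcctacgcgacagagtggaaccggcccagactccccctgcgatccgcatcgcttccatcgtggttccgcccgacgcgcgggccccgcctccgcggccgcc
Smc1a: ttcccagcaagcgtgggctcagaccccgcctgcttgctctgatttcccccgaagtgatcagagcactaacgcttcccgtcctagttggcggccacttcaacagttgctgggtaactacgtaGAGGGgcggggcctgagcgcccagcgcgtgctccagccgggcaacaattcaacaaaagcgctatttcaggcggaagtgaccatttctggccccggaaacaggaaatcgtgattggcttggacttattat
The *Ctcf* promoter held the pentamer 5 times, the *Smc3* promoter 2 times and the *Smc1a* promoter 1 time in these letters.

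RefSeq promoters were found for 6 of the 9 genes, namely *Ctcf*, *Smc1a*, *Smc3*, *Stag1*, *Pds5a* and *Pds5b*. Over a window of 300 bases, 250 before and 50 after the start, 4 strings, none of which contains another, were searched on both strands in 32851 promoters. CCCTC occurred in 6 of the 6 members and in 66.0% of all promoters, so that its presence alone does not set the members apart. AANATGGC, the string bound by YY1, occurred in 4 of 6 (*Ctcf*, *Smc3*, *Stag1* and *Pds5b*) and in 6.05% of all promoters. CCGGAAG, an ETS string, occurred in 0 of 6 against 8.86%, and CCAAT, the NF-Y string, in 3 of 6 against 37.4%. A match of letters is a description of the window and not a binding site.

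Of the 9 genes, 3 were called by limma at an adjusted p under 0.05, which is 33.3%, where 24% of the 11701 genes tested were called. The genes called higher in *Ctcflos* KD were 2 of 9, against 11.5% of all genes, and the gene called lower was 1 of 9, against 12.4%. The values of the 2 groups of libraries did not overlap in 6 of 9 genes (66.7%), 4 higher and 2 lower in *Ctcflos* KD, where 44.8% of all genes did not overlap. The median log2 fold change was 0.07 over the 9 genes and 0.03 over all genes tested. Without *Ctcflos* KD replicate 3 and control replicate 2, the libraries with the highest summed smooth muscle markers in their groups, 5 members were called, 4 higher and 1 lower (*Smc3* and *Stag1* in addition), while the count over all genes rose from 2803 to 4577. Without *Ctcflos* KD replicate 1, *Ctcflos* KD replicate 2, control replicate 1 or control replicate 3, 0 members were called by limma, without control replicate 2 the count was 1, and without *Ctcflos* KD replicate 3 it was 5. Over all genes the same fits called, in this order, 1164, 1094, 421, 369, 1583 and 4810 of 11563 to 11751 tested. The member count thus moved with the count over all genes. With 9 genes, these shares cannot be read as apart from the background, and the description rests on single genes. Fold changes are on the log2(RPKM + 1) scale, which understates changes of weakly expressed genes, and gene values are means over all transcript accessions of a symbol.

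**Figure D1:**
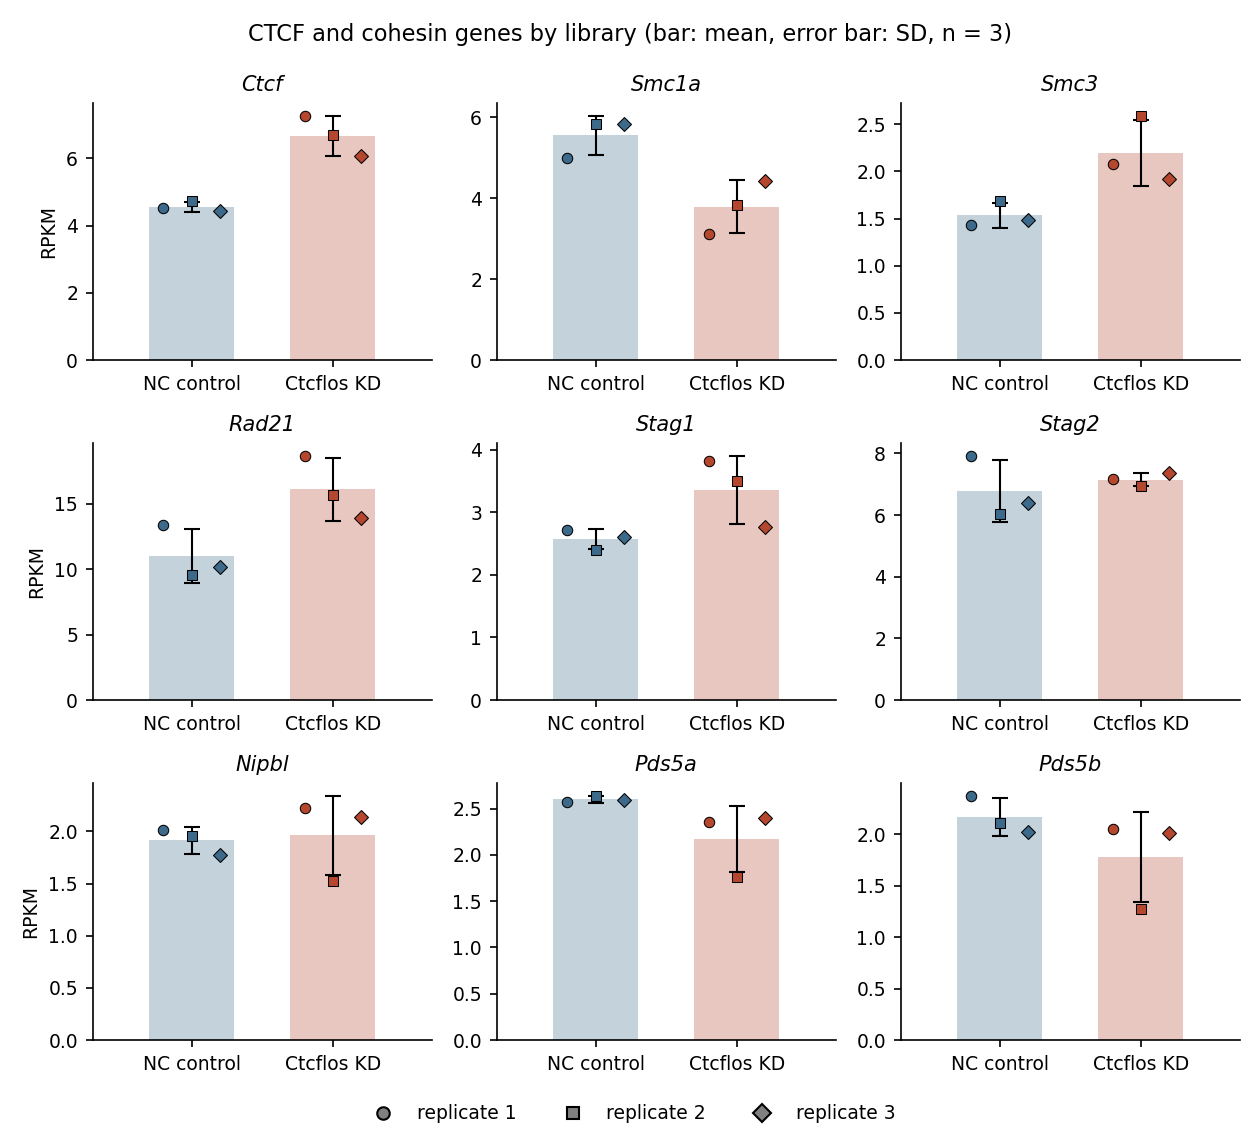
RPKM (linear axis from 0) of the 9 genes in the 3 NC control and 3 *Ctcflos* KD libraries, with bars for the mean, error bars for the SD and symbols for the replicate numbers. The *Ctcflos* KD libraries lie above all controls for *Ctcf*, *Smc3*, *Rad21* and *Stag1*, below all controls for *Smc1a* and *Pds5a*, and overlap with the controls for *Stag2*, *Nipbl* and *Pds5b*.

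*Ctcf* (ENSMUSG00000005698, plus strand, chr8:105636568-105682922 in Gencode vM21 on GRCm38) had 7.27, 6.69 and 6.06 RPKM in *Ctcflos* KD replicates 1 to 3 and 4.52, 4.74 and 4.44 RPKM in the controls. The groups did not overlap, and the controls lay closer together than the *Ctcflos* KD libraries. The means were 6.67 ± 0.602 and 4.56 ± 0.152 RPKM (SD, n = 3 each), or 146% of control. The log2 fold change was 0.46 (limma, standard error 0.0992, adjusted p = 0.0172). The call was lost without *Ctcflos* KD replicate 1 (adjusted p = 0.0540, limma), *Ctcflos* KD replicate 2 (0.0537), control replicate 1 (0.0808) or control replicate 3 (0.0860), each with a log2 fold change of at least 0.405.

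Of the core ring, *Rad21*, the kleisin that bridges the SMC heads and is cut by separase, was the most abundant. It had 18.7, 15.7 and 13.9 RPKM in *Ctcflos* KD and 13.4, 9.59 and 10.1 RPKM in controls, without overlap although control replicate 1 nearly reached the lowest *Ctcflos* KD library. The means were 16.1 ± 2.39 and 11.0 ± 2.05 RPKM (SD, n = 3 each), and the log2 fold change was 0.51 (limma, standard error 0.158, adjusted p = 0.0493). This call stood close to the threshold. It was lost at a pseudocount of 0.1 (adjusted p = 0.0505, limma), without the filter on low values (0.106), and when *Ctcflos* KD replicate 1 (0.139), *Ctcflos* KD replicate 2 (0.109), control replicate 1 (0.0628), control replicate 2 (0.143) or control replicate 3 (0.170) was left out. The gene lies on the minus strand at chr15:51962240-51991747 and spans 29.5 kb, the shortest of the 9 genes.

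*Smc1a*, an X-linked ATPase arm of the ring, went the other way. It had 3.10, 3.83 and 4.43 RPKM in *Ctcflos* KD and 4.99, 5.83 and 5.84 RPKM in controls. Every *Ctcflos* KD library was below every control, with means of 3.79 ± 0.663 and 5.55 ± 0.483 RPKM (SD, n = 3 each), or 68.2% of control. The log2 fold change was -0.46 (limma, standard error 0.126, adjusted p = 0.0347). The call was lost without the filter on low values (adjusted p = 0.0823, limma), with the most abundant accession alone (0.0555), and without *Ctcflos* KD replicate 1 (0.0930), *Ctcflos* KD replicate 2 (0.0857), control replicate 1 (0.0824), control replicate 2 (0.0992) or control replicate 3 (0.131). The gene lies on the plus strand at chrX:152016428-152062694.

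*Smc3*, the partner ATPase whose acetylation locks the ring on sister chromatids, had 2.08, 2.59 and 1.92 RPKM in *Ctcflos* KD and 1.44, 1.68 and 1.48 RPKM in controls. The groups did not overlap, with means of 2.19 ± 0.352 and 1.53 ± 0.132 RPKM (SD, n = 3 each). It was not called, with a log2 fold change of 0.33 (limma, standard error 0.107, adjusted p = 0.0572). It was called with RefSeq accessions only (log2 fold change 0.39, adjusted p = 0.0242, limma), with the most abundant accession alone (0.38, adjusted p = 0.0295) and without *Ctcflos* KD replicate 3 (0.39, adjusted p = 0.0209). The gene lies on the plus strand at chr19:53600398-53645833.

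STAG1 and STAG2 are alternative subunits, 1 per ring, and contact CTCF. *Stag1* had 3.82, 3.50 and 2.76 RPKM in *Ctcflos* KD and 2.71, 2.39 and 2.60 RPKM in controls. *Ctcflos* KD replicate 3 lay just above the highest control, and the log2 fold change of 0.28 (limma, standard error 0.114, adjusted p = 0.107) did not pass. Without *Ctcflos* KD replicate 3 it was 0.39 (adjusted p = 0.0125, limma). *Stag2*, the X-linked paralog, had 7.17, 6.94 and 7.35 RPKM in *Ctcflos* KD and 7.93, 6.03 and 6.38 RPKM in controls, so that the controls spread around the *Ctcflos* KD libraries (limma log2 fold change 0.07, standard error 0.116, adjusted p = 0.661). The genes lie on the plus strand at chr9:100597798-100959375 and chrX:42149317-42277185.

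*Nipbl* on the minus strand at chr15:8290617-8444463, the loader subunit that drives the ATPase of the ring, had 2.22, 1.52 and 2.14 RPKM in *Ctcflos* KD and 2.02, 1.96 and 1.77 RPKM in controls. *Ctcflos* KD replicate 2 was the lowest and *Ctcflos* KD replicate 1 the highest of the 6 libraries, and the log2 fold change was 0.02 (limma, standard error 0.116, adjusted p = 0.936). Its sign turned under 7 of 13 alternatives, always at a size of at most 0.05.

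PDS5A and PDS5B bind the ring at RAD21 and recruit either its release factor or its protection. *Pds5a* (minus strand, chr5:65605721-65698273) had 2.35, 1.76 and 2.40 RPKM in *Ctcflos* KD and 2.57, 2.64 and 2.59 RPKM in controls. All *Ctcflos* KD libraries were lower, with *Ctcflos* KD replicate 2 farthest, yet the log2 fold change of -0.19 (limma, standard error 0.106, adjusted p = 0.220) did not pass. With RefSeq accessions only it was -0.34 (adjusted p = 0.0268, limma). *Pds5b* (plus strand, chr5:150673739-150810690) had 2.05, 1.27 and 2.01 RPKM in *Ctcflos* KD and 2.38, 2.11 and 2.03 RPKM in controls. The groups overlapped, again with *Ctcflos* KD replicate 2 lowest (limma log2 fold change -0.20, standard error 0.131, adjusted p = 0.286).

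**Figure D2:**
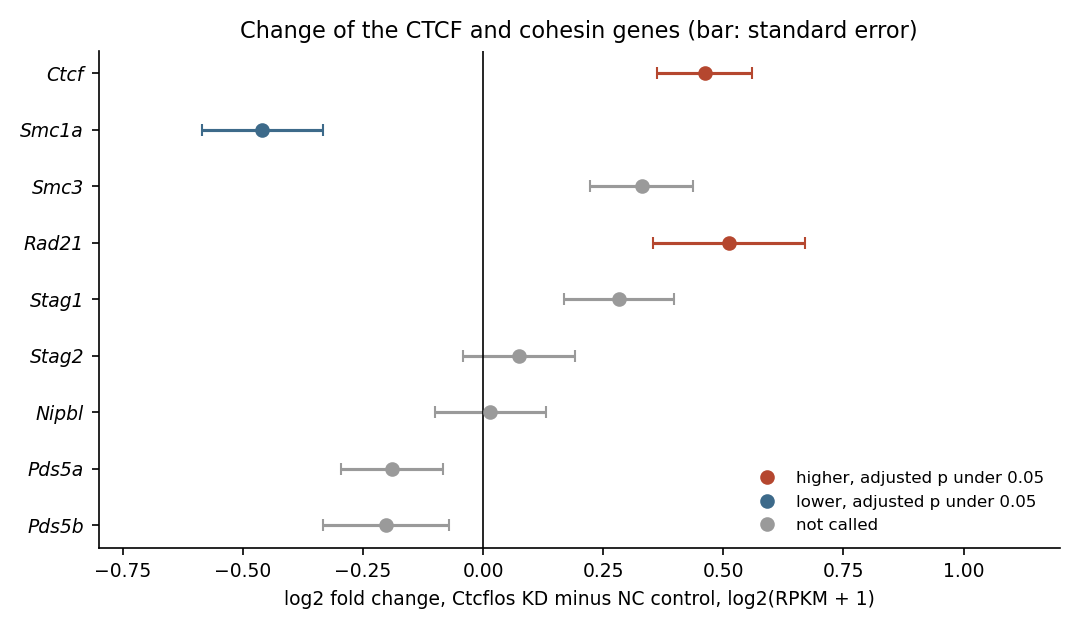
Log2 fold change (*Ctcflos* KD minus NC control, log2(RPKM + 1)) of the 9 genes, with bars for the standard error from limma. *Ctcf* (0.46) and *Rad21* (0.51) are called higher and *Smc1a* (-0.46) lower, while *Smc3*, *Stag1*, *Stag2*, *Nipbl*, *Pds5a* and *Pds5b* are not called.

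The order of levels was taken from RefSeq accessions only, per length, since many further accessions are short fragments. In controls the order was *Rad21* (11.2 ± 1.63 RPKM), *Stag2* (9.05 ± 1.24), *Smc1a* (6.39 ± 0.640), *Ctcf* (5.49 ± 0.217), *Pds5a* (4.87 ± 0.129), *Stag1* (3.92 ± 0.238), *Nipbl* (3.82 ± 0.143), *Smc3* (2.56 ± 0.187) and *Pds5b* (2.05 ± 0.172; SD, n = 3 each). *Rad21* and *Stag2*, *Smc1a* and *Ctcf*, and *Stag1* and *Nipbl* overlapped between neighbours. In *Ctcflos* KD, *Ctcf* stood in rank 3 with 8.08 ± 0.754 RPKM and *Smc1a* in rank 5 with 4.29 ± 0.836 RPKM (SD, n = 3 each), after *Stag1* in rank 4 with 4.99 ± 0.760 RPKM. *Pds5a* moved from rank 5 to rank 8, and *Pds5b* stayed last. The 5 genes in ranks 4 to 8 of *Ctcflos* KD, from *Stag1* through *Smc1a*, *Nipbl* and *Smc3* to *Pds5a*, each overlapped with the next. The mRNA of *Smc3* was below that of *Smc1a* in all 3 controls, whereas in *Ctcflos* KD the ranges overlapped, and replicate 1 had 3.49 RPKM of *Smc3* and 3.37 RPKM of *Smc1a*.

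Ratios between members within a library do not depend on the scaling of the library. They were taken from the means over all accessions, so that the size of a ratio depends on the fragments listed for a gene, and only the difference between groups is compared. Of 6 ratios, the groups did not overlap in 1, that of *Smc1a* to *Smc3*, which was 0.58, 0.57 and 1.21 on the log2 scale in *Ctcflos* KD and 1.80, 1.79 and 1.98 in controls. The geometric mean ratio was 1.72 in *Ctcflos* KD and 3.62 in controls, a difference of -1.07 on the log2 scale (exact two-sided permutation test p = 0.1, adjusted p = 0.6 over the 6 ratios). For 3 libraries against 3, 0.1 is the smallest p this test can give, so that no ratio could pass. On RefSeq accessions only, the geometric mean ratio was 1.16 and 2.49, with a difference of -1.11 and no overlap. The difference over all accessions stayed between -1.28 and -0.96 when each library was left out in turn.

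The remaining 5 ratios overlapped between groups. *Stag1* to *Stag2* was -1.10 ± 0.273 in *Ctcflos* KD and -1.39 ± 0.137 in controls on the log2 scale (SD, n = 3 each, exact permutation test p = 0.3), and *Nipbl* to its partner *Mau2* was -0.56 ± 0.235 and -0.99 ± 0.187 (SD, n = 3 each, exact permutation test p = 0.2). *Ctcf* to *Rad21* had a linear ratio of 0.416 in *Ctcflos* KD and 0.418 in controls, and *Rad21* to *Smc3* one of 7.35 and 7.13. For these pairs the differences were -0.0063 and 0.04 on the log2 scale, with exact permutation p of 0.9 and 0.8. *Pds5a* to *Pds5b* differed by 0.04 (exact permutation test p = 0.8). On RefSeq accessions only, *Rad21* to *Smc3* was 4.51 and 4.36, *Ctcf* to *Rad21* 0.489 and 0.493, and *Pds5a* to *Pds5b* 2.22 and 2.39, a difference of -0.10 for the last pair.

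**Figure D3:**
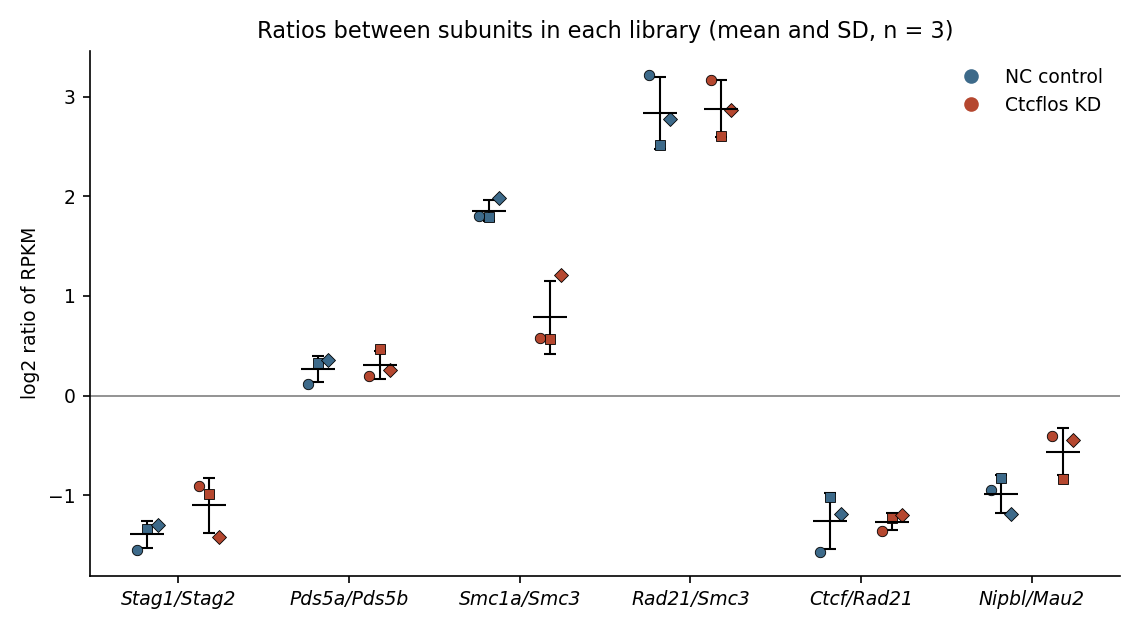
Log2 ratio of the RPKM of 2 genes in each library for 6 pairs, with points for libraries (circle, square and diamond for replicates 1, 2 and 3), horizontal marks for means and bars for the SD. The groups are apart for *Smc1a* to *Smc3* (mean 0.78 in *Ctcflos* KD and 1.86 in controls) and overlap for the other pairs.

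The table lists 108 accessions for the 9 genes, of which 89 passed the filter. Overlapping accessions share reads and are not independent, so their number shows only whether a gene value rests on a few lines. 29 accessions were called, 20 higher and 9 lower in *Ctcflos* KD, which is 32.6%, where 26% of the 67403 accessions tested were called. All 8 *Ctcf* accessions had a positive log2 fold change, from 0.23 to 0.57, and 6 were called. All 10 tested of *Smc1a* were negative, from -0.55 to -0.30, with 8 called, and all 9 of *Rad21* were positive, from 0.34 to 0.55, with 8 called. A *Rad21* accession was listed more than once with slightly different values, and each of its lines was counted as an accession here. The direction of these genes was thus shared by their tested accessions.

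For *Smc3*, 6 of 6 tested accessions were positive and 3 were called, among them the RefSeq mRNA. For *Stag1*, 16 of 16 were positive and 3 were called, all of them GenBank or short Ensembl entries, while the RefSeq mRNA (log2 fold change 0.28, adjusted p = 0.104 with RefSeq accessions only, limma) was not. For *Pds5a*, 4 of 4 were negative and the RefSeq mRNA alone was called. *Stag2* (12 of 13 positive), *Nipbl* (4 of 11 positive) and *Pds5b* (12 of 12 negative) had no called accession at an adjusted p under 0.05.

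**Figure D4:**
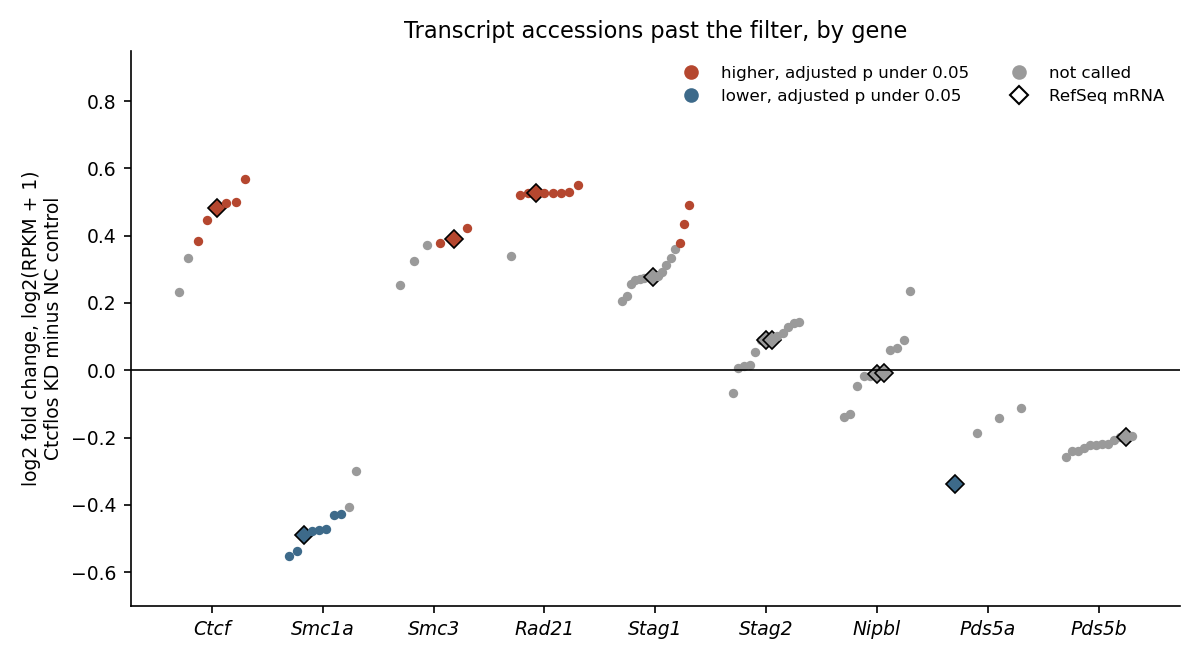
Log2 fold change (log2(RPKM + 1)) of the 89 tested accessions, by gene and in rising order within a gene, with diamonds for RefSeq mRNAs and colours for the limma call. All points of *Ctcf*, *Smc3*, *Rad21* and *Stag1* lie above 0, all of *Smc1a*, *Pds5a* and *Pds5b* below 0, and those of *Nipbl* on both sides.

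The number of reads behind these values differed between transcripts. On the Ensembl transcript used for *Smc1a*, of 4691 bases, 1030, 1353 and 1215 reads were recovered in *Ctcflos* KD and 1776, 2162 and 1691 in controls. On that used for *Ctcf*, of 1554 bases, they were 338, 249 and 181 in *Ctcflos* KD and 213, 213 and 187 in controls. That transcript was 1 of the 2 *Ctcf* accessions not called (adjusted p = 0.197, limma). For *Smc3*, a fragment of 471 bases held 41 to 116 reads.

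Gene span moved with the changes across the table. Of the genes tested, 80.5% had a span in Gencode vM21. Genes of at least 100 kb had a median log2 fold change of -0.34 (n = 921, 48.6% called), and shorter genes one of 0.05 (n = 8499, 23.0% called). *Stag1* (362 kb), *Nipbl* (154 kb), *Pds5b* (137 kb) and *Stag2* (128 kb) are of at least 100 kb, and their log2 fold changes of 0.28, 0.02, -0.20 and 0.07 all stood above the median of genes of that size. *Ctcf*, *Smc1a* and *Smc3* have spans of 46.4, 46.3 and 45.4 kb and differed in direction. The part of span in these values was not tested.

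Beyond the 9 genes, 47 genes of the SMC complexes and CTCF partners were listed by role, with earlier results of these data known. Of these, 34 passed the filter. 8 were called higher and 3 lower in *Ctcflos* KD (32.4%, against 24% of all genes), and their median log2 fold change was 0.14. Of the 13 genes below the filter, 4 were the meiotic subunits *Smc1b*, *Rad21l*, *Rec8* and *Stag3*, each at no more than 0.065 RPKM in any library. *Hdac8*, the deacetylase of SMC3, was also below the filter and is named after its values were seen, at no more than 0.162 RPKM in *Ctcflos* KD and at least 0.365 RPKM in controls (limma without a filter, adjusted p = 0.0334). The called count of 11 fell to 3 without *Ctcflos* KD replicate 1, to 5 without *Ctcflos* KD replicate 2, to 1 without control replicate 1, to 5 without control replicate 2 and to 1 without control replicate 3. Without *Ctcflos* KD replicate 3 it rose to 15. Over all genes, the called count of 2803 fell to between 369 and 1583 in the fits where this count fell. It rose to 4810 without *Ctcflos* KD replicate 3.

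Among 10 tested genes that act on cohesin or govern its loading and release, 2 were higher and 1 lower (30% called, against 24% of all genes). *Wapl*, the release factor (listed as *Wapal*), had 18.7, 20.6 and 16.1 RPKM in *Ctcflos* KD and 11.4, 11.0 and 11.5 RPKM in controls, without overlap (limma log2 fold change 0.65, standard error 0.119, adjusted p = 0.0108). It was called under 11 of 13 alternatives and in 4 of the 6 fits without a library. *Esco1*, an acetyltransferase for SMC3, had 5.70, 5.95 and 5.12 RPKM in *Ctcflos* KD and 4.37, 4.23 and 4.38 RPKM in controls (log2 fold change 0.30, adjusted p = 0.0493, limma). *Mau2*, the loader partner of NIPBL, had 2.94, 2.72 and 2.91 RPKM in *Ctcflos* KD and 3.89, 3.47 and 4.04 RPKM in controls (log2 fold change -0.31, adjusted p = 0.0429, limma). *Esco1* and *Mau2* did not overlap between groups either, and each kept its call in 1 of the 6 fits without a library. *Sgo2a*, a protector of cohesin at centromeres, was the next by p (log2 fold change 0.32, adjusted p = 0.0755, limma) and was not called.

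Of 8 tested CTCF partners, 3 were higher and 1 was lower (50% called, against 24% of all genes). *Yy1*, a zinc finger factor that also bridges enhancers and promoters, had 10.4, 7.69 and 6.17 RPKM in *Ctcflos* KD and 5.26, 4.12 and 4.67 RPKM in controls (log2 fold change 0.66, adjusted p = 0.0309, limma). *Zfp143*, a factor found at promoters, had 3.37 ± 0.714 and 2.11 ± 0.161 RPKM (SD, n = 3 each, log2 fold change 0.48, adjusted p = 0.0353, limma), and the loop adaptor *Ldb1* had 4.52 ± 1.00 and 2.91 ± 0.174 RPKM (SD, n = 3 each, log2 fold change 0.48, adjusted p = 0.0402, limma). *Parp1*, which modifies CTCF with poly(ADP-ribose), had 2.38, 2.72 and 3.99 RPKM in *Ctcflos* KD and 4.61, 4.72 and 5.14 RPKM in controls (log2 fold change -0.55, adjusted p = 0.0326, limma). In these 4 genes the groups did not overlap, and each kept its call in 1 of the 6 fits without a library. *Ctcfl*, the germline paralog of *Ctcf*, overlaps *Ctcflos* on the opposite strand. It was at 0.0386 ± 0.0291 and 0.170 ± 0.0607 RPKM (SD, n = 3 each), a lower level in *Ctcflos* KD but below the filter (adjusted p = 0.0680 from limma without a filter), and reads from either strand cannot be told apart here, since the libraries were stranded but no source says whether strand was used in counting.

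Genes of the related SMC complexes were counted beside the 24% called over all genes, and no difference between these lists was tested. Of 7 tested condensin genes, 0 were called by limma and 0 had an unadjusted p under 0.05, and their median log2 fold change was 0.07. Of 8 tested genes of the SMC5/6 complex, which acts in DNA repair, 3 were higher and 1 lower (50%). *Nsmce2*, its SUMO ligase, had 0.452, 0.420 and 0.852 RPKM in *Ctcflos* KD and 2.08, 1.73 and 2.45 RPKM in controls (limma log2 fold change -0.98, standard error 0.137, adjusted p = 0.0057), and it was called in all 13 alternatives. *Nsmce3* (listed as *Ndnl2*) had 8.12 ± 1.43 and 4.86 ± 0.124 RPKM (SD, n = 3 each, log2 fold change 0.63, adjusted p = 0.0158, limma). *Slf2* (listed as *Fam178a*), a loader of the complex, had 4.51 ± 0.371 and 2.92 ± 0.225 RPKM (SD, n = 3 each, log2 fold change 0.49, adjusted p = 0.0140, limma). *Eid3* had 3.01, 1.60 and 1.34 RPKM in *Ctcflos* KD and 0.366, 0.618 and 0.278 RPKM in controls (log2 fold change 1.04, adjusted p = 0.0128, limma). *Nsmce3* kept its call in 3 of the 6 fits without a library, *Slf2* in 4 of 6 and *Eid3* in 3 of the 5 in which it passed the filter. The mean of *Nsmce2* was 0.575 RPKM in *Ctcflos* KD and that of *Eid3* 0.420 RPKM in controls. Each thus passed the filter only through the group in which it was high, and both count in the 50%. In the fit without a filter they had adjusted p of 0.0276 and 0.0451 (limma).

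**Figure D5:**
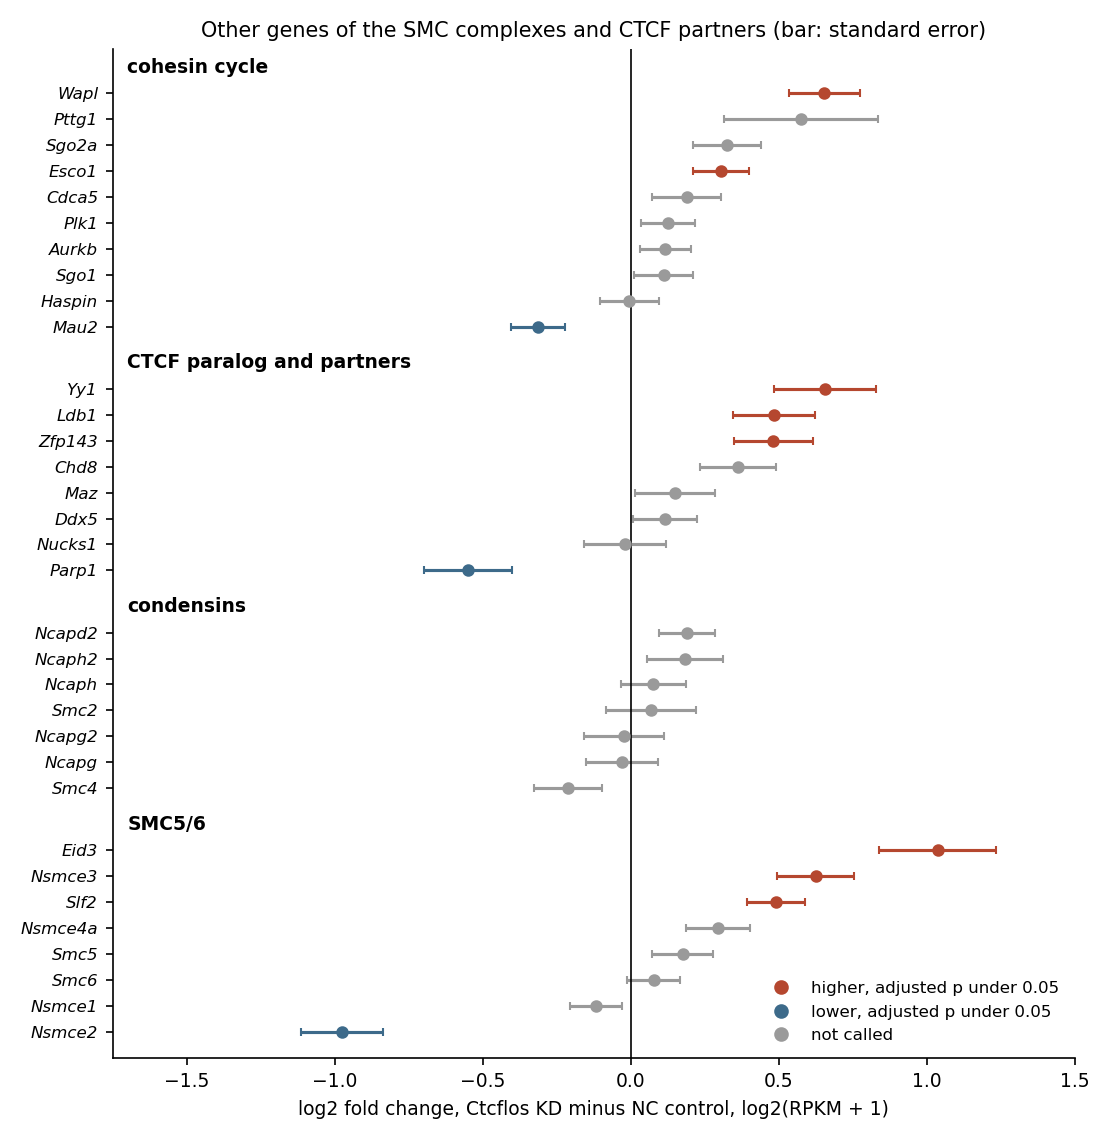
Log2 fold change (*Ctcflos* KD minus NC control, log2(RPKM + 1)) of 33 of the 34 tested genes around cohesin and CTCF, grouped by role, with bars for the standard error. 8 genes are called higher, from *Esco1* (0.30) to *Eid3* (1.04), and 3 lower, *Mau2* (-0.31), *Parp1* (-0.55) and *Nsmce2* (-0.98), while no condensin gene is called. The mean of *Eid3* in controls and that of *Nsmce2* in *Ctcflos* KD are below 1 RPKM.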

How the data were processed

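RNA of 3 *Ctcflos* KD and 3 NC control samples was sequenced from stranded total RNA libraries. The authors deposited 1 table of RPKM values per transcript accession, with decimal commas. How these values were computed is not given in the sources used here, and alignment with STAR to GRCm38 is stated for the splice analysis of the same libraries. After removal of 305 exact repeats, 168021 lines were left, and gene values are means over the accessions of a symbol.

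Genes with a mean of at least 1 RPKM over the 6 libraries were tested on log2(RPKM + 1) by limma-trend (limma 3.58.1, R 4.3.3) with Benjamini-Hochberg adjustment over all 11701 genes. Accessions were tested likewise. Limma values of *Ctcflos* and of other genes below the limit come from a fit without the filter. Log2 ratios between members were compared by exact two-sided permutation tests. The script was tested on artificial values before use. Depth was recovered from Ensembl transcripts with a Gencode vM21 length, with at least 95.3% of the low values within 0.1 of whole reads, between 60.8 and 79.2 mio reads per library. Tables were handled in Python 3.11.15 with pandas 2.3.3 and numpy 2.4.6.

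The members and gene lists were chosen with earlier results of these data known. Named genes are all 9 members, *Ctcflos* and *Ctcfl*, of the other pathway genes those called and at most the 4 with the smallest p per subgroup, at most 4 each of the cell cycle genes and CTCF loci, and the 5 genes nearest to *Ctcf*. Marker sums use the listed markers of adipocytes, brite adipocytes, progenitors, immune, endothelial, smooth muscle, and epithelial or mesothelial cells. The value of 1 tested gene is not reported here. Promoters come from RefSeq (GRCm38.p6).

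Alternatives were a pseudocount of 0.1, no filter, scaling by the median of ratios, RefSeq accessions only, the most abundant accession, the replicate number as a block, and leaving out each library.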

Additional observations from a re-analysis of the deposited data

How the results depend on the processing

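Leaving out each library in turn moved the called counts to between 369 and 4810 for all genes, 0 and 5 for the 9 members, 1 and 15 for the other genes of the pathway, 0 and 45 for member accessions, 0 and 7 for cell cycle genes and 1 and 5 for CTCF loci. The log2 fold change of *Ctcflos*, which is below the filter and was taken from fits without it, then lay between -0.72 and -0.63 (limma adjusted p 0.00973 to 0.130). That of *Stag2* lay between 0.0060 and 0.18 and that of *Nipbl* between -0.0504 and 0.13. The log2 ratio differences lay between -0.0379 and 0.10 for *Pds5a* to *Pds5b*, -0.12 and 0.24 for *Rad21* to *Smc3* and -0.16 and 0.11 for *Ctcf* to *Rad21*. Without a filter on low values, 1807 of 38335 genes, 1 member, 6 other pathway genes, 8 accessions, 2 cell cycle genes and 1 CTCF locus were called. With RefSeq accessions only, 5 members were called and the *Nipbl* log2 fold change was -0.0098, while that of *Pds5a* to *Pds5b* turned to -0.10. The most abundant accession gave -0.0460 for *Nipbl*, -0.11 for *Pds5a* to *Pds5b* and 0.0489 for *Ctcf* to *Rad21*. Scaling by the median of ratios gave -0.0043 for *Nipbl* and 3 cell cycle genes. Leaving out *Ctcflos* KD replicate 3 and control replicate 2 together, chosen after seeing their marker levels, gave 4577 genes, 5 members, 16 other pathway genes and 9 cell cycle genes, a *Ctcflos* log2 fold change of -0.73, and -0.0115 for *Stag2* and -0.0190 for *Nipbl*. The causes were not tested.

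Libraries 1, 2 and 3 of *Ctcflos* KD correlated in their deviation from the group mean with the equally numbered control at 0.287, -0.288 and -0.418, so that the replicate numbers were not taken to pair the libraries. A fit with a replicate block called 1671 genes, 3 members (*Ctcf*, *Rad21* and *Smc1a*, limma adjusted p 0.0476, 0.0490 and 0.0464), 7 other pathway genes, 2 cell cycle genes and 1 CTCF locus. With the block and without a filter, *Ctcflos* had a log2 fold change of -0.66 (limma adjusted p = 0.113).

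The signs of *Ctcf*, *Smc1a*, *Smc3*, *Rad21*, *Stag1*, *Pds5a* and *Pds5b* were the same under all 13 alternatives. *Ctcf* was called under 9 of them, *Rad21* and *Smc1a* under 6 each. Read numbers are known only where a transcript length was matched, and overlapping accessions limit what the accession counts can show.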

Other observations

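CTCF is long known to govern the imprinted *H19* locus, the *Myc* promoter and the choice of clustered protocadherin promoters, and 27 listed genes of such loci passed the filter. *H19*, a noncoding RNA of the imprinted locus, had 2.08, 3.39 and 4.09 RPKM in *Ctcflos* KD and 8.19, 7.38 and 9.90 RPKM in controls (limma log2 fold change -1.20, standard error 0.190, adjusted p = 0.0077), and it was called under all 13 alternatives. Its neighbour *Igf2* stayed below the filter, at no more than 0.154 RPKM in any library. *Myc*, a growth regulator, had 7.88, 5.90 and 3.39 RPKM in *Ctcflos* KD and 2.58, 2.56 and 2.97 RPKM in controls (limma log2 fold change 0.80, standard error 0.228, adjusted p = 0.0385), and it was called in 1 of the 6 fits without a library. Of the protocadherin genes, *Pcdhgb2* was called lower (limma log2 fold change -0.40, adjusted p = 0.0454, called under 4 of 13 alternatives and in 1 of the 6 fits without a library) and *Pcdhb22* was not called (limma log2 fold change -0.27, adjusted p = 0.0538). Genes of the gamma cluster share their constant exons and therefore reads, so that their values cannot be separated. In all, 1 gene was called higher and 2 lower, 11.1% against 24% of all genes tested. By sign, 26 of the 27 were negative, with a median log2 fold change of -0.29. Over all genes tested, 53.2% were positive, with a median of 0.03. Among genes with a span of at least 100 kb, 21.5% were positive, with a median of -0.34. The part of span in the values of the 27 genes was not tested. The groups did not overlap in 25 of the 27, with 24 lower and 1 higher in *Ctcflos* KD. Over all genes the groups did not overlap in 44.8%, counted in either direction. Most of the 27 are genes of the gamma cluster, which share reads and are not independent of each other. These counts therefore describe in large part 1 locus.

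Of 17 tested cell cycle genes, 5 were called higher and 0 lower in *Ctcflos* KD (limma), 29.4% against 24% of all genes, with a median log2 fold change of 0.27. By sign, 12 were positive and 5 negative, where 53.2% of all genes tested were positive. Of the negative genes, *Aurka* had a log2 fold change of -0.30 (limma, adjusted p = 0.147). *Ccne1* had one of -0.11 (limma, adjusted p = 0.383), with every *Ctcflos* KD library below every control. *Aurka* and *Ccne1* were named after their values were seen. *Mcm3*, a subunit of the replicative helicase, had 4.39, 5.32 and 4.53 RPKM in *Ctcflos* KD and 2.34, 3.34 and 2.28 RPKM in controls (limma log2 fold change 0.66, adjusted p = 0.0146). *Mcm2* (limma log2 fold change 0.66, adjusted p = 0.0155), *Mcm7* (0.42, adjusted p = 0.0395) and the cyclin *Ccne2* (0.35, adjusted p = 0.0234) did not overlap between groups either. The fifth gene, *Mcm6* (0.40, adjusted p = 0.0457), the uncalled helicase subunits *Mcm5* (0.42, adjusted p = 0.0525) and *Mcm4* (0.36, adjusted p = 0.0663), and *Mki67* (0.14, adjusted p = 0.613), a marker of cycling cells, were chosen after their values were seen. Without control replicate 1, control replicate 3 or *Ctcflos* KD replicate 2, 0 of these genes were called, and without *Ctcflos* KD replicate 1, 2 were.

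The genes outside the group whose centred log2(RPKM + 1) over the 6 libraries lay nearest to that of *Ctcf* were *Flrt2*, *Sf3b4*, *Uchl5*, *Fam178a* (*Slf2*) and *Wsb2*, with root mean square distances of 0.0172, 0.0229, 0.0287, 0.0334 and 0.0344. *Flrt2*, a membrane protein, had 5.94, 5.22 and 4.77 RPKM in *Ctcflos* KD and 3.54, 3.72 and 3.53 RPKM in controls. Within the group, the nearest were *Stag1* (0.116), *Smc3* (0.118) and *Rad21* (0.158), and the farthest was *Smc1a* (0.499). The distances are a description over 6 libraries that hold the group difference itself.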
